A study of Mus musculus with 5 samples.

Results

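Chemokines are small secreted proteins that steer migrating cells, chiefly leukocytes, by binding G protein-coupled receptors on their surface. The family was taken here as every mouse gene whose symbol is Ccl, Cxcl, Xcl, Cx3cl, Ccr, Cxcr, Xcr, Cx3cr or Ackr followed directly by a digit, which gave 63 of the 51912 genes in the deposited tables: 40 ligands and 23 receptors. The platelet chemokines Pf4 and Ppbp and the receptor-like gene Ccrl2 fall outside this naming rule. RNA came from tissue labelled dorsolateral prostate of male mice aged 7 months, in 3 libraries labelled Ghr deletion and 2 labelled tamoxifen control. The deletion mice were Ghr flox/flox with ROSA26 Cre-ERT2 +/0 and SV40 C3(1) T-antigen +/0, and the control mice were Ghr flox/flox with SV40 C3(1) T-antigen +/0, so the floxed growth hormone receptor gene and the tumour-driving transgene were shared by both groups. All mice were given tamoxifen at 250 mg/kg on each of 5 days, and tissue was collected 1 month after the last dose. The C3(1) promoter directs T antigen to prostate epithelium. ROSA26 is a broadly active locus, so the labels do not restrict Cre to the prostate epithelium, and an effect of the Cre transgene itself cannot be told apart from one of Ghr loss.

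Chemokines are grouped by the spacing of their first cysteines (CC, CXC, XC and CX3C) and by use. Homeostatic ligands such as Cxcl12 and Ccl21a are made constantly by stroma and vessels and place cells within tissues, while inflammatory ligands such as Cxcl9, Cxcl10 and Ccl5 are switched on by interferons and NF-kB and draw in T cells and monocytes. Atypical receptors (Ackr) bind ligands without G protein signalling and clear or transport them. In prostate tumours the family is known mainly for Cxcl12 and Cxcr4, which guide tumour and stromal cells, and for the recruitment of T cells and macrophages.

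Library totals ran from 28536656 to 37910328 expected counts in the deletion libraries, against 47656216 and 13812483 in the controls. The 7 seminal vesicle secretory genes examined summed to 274000, 341000 and 8840 CPM (read counts scaled for library size with TMM factors) in deletion replicates 1, 2 and 3, against 697000 and 18500 CPM in control replicates 1 and 2. Of the 7, 4 (Svs1, Svs3a, Svs4 and Svs6) had every deletion library below both controls, against 10.2% of all tested genes. Groups overlapped for Svs2, Svs5 and Pate4. The prostate marker Pbsn had 4, 8 and 3 counts in the deletion libraries, against 411 and 1 in the controls, so the labelled tissue was marked clearly in control replicate 1 alone. Ghr had 8.12, 20.9 and 12.1 CPM in the deletion libraries, against 14.4 and 31.2 CPM in the controls, and its groups overlapped. Counts over the whole gene do not single out the floxed exon, and so test the labels poorly. Proliferation genes went with the groups: Top2a, a topoisomerase of dividing cells, had 1.47, 1.63 and 1.02 CPM in the deletion libraries, against 48.5 and 11.5 CPM in the controls.

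Of the 63 members, 36 had enough counts to be tested, 21 ligands and 15 receptors. Most of the tested members were lower in the deletion libraries by fold change: 27 were negative and 9 positive, and their median log2 fold change was -0.89, where that of all tested genes was 0.004 and 49.6% of them were negative. Ligands (15 of 21 negative) and receptors (12 of 15 negative) had the same median of -0.89. No member passed edgeR's quasi-likelihood test at a Benjamini-Hochberg adjusted p under 0.05 over the 18615 genes tested, and neither did any other gene (0% called); the members' adjusted p ran from 0.985 to 0.997. At an unadjusted p under 0.05 in edgeR there were 4 members, Ccl21a, Cxcr4, Cxcl10 and Cxcl9, all lower (11.1% of those tested, where 4.92% of all tested genes, 915, passed that rule and 3.23% were lower by it). All 3 deletion libraries lay below both controls for 10 members (27.8%, against 10.2% of all tested genes) and above both for 0 (against 9.43%), where 19.6% of all genes lay clear on either side. These counts describe members that got past the low-count filter. Its level of 0.299 CPM of the raw library was reached in both groups by 32 members. Ackr2 and Cxcr3 reached it in controls only, and Ccr10 and Cxcl2 in deletion libraries only. Ackr2 and Cxcr3 are among the 10 lower members, though they passed the filter only through the group where they were high. DESeq2 passed 2 members over all genes, Ccl21a (adjusted p = 8.91e-05) and Cxcr4 (adjusted p = 0.033), both lower, where 0.892% of all genes passed and 0.698% passed as lower. It had 7 members at an unadjusted p under 0.05 (6.9% of all genes). By limma-voom 0 genes passed, and 5 members had an unadjusted p under 0.05 (3.98% of all genes, 740).

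**Figure D1:**
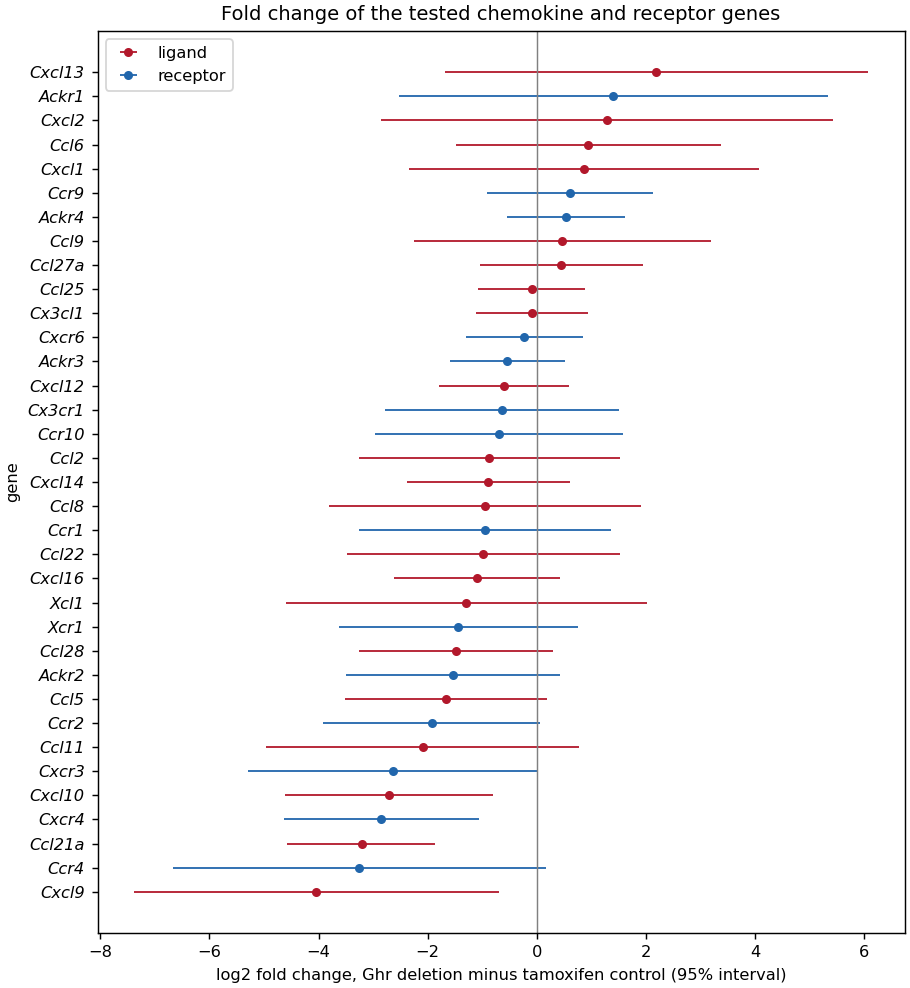
Log2 fold change (Ghr deletion minus tamoxifen control; horizontal axis) of 35 of the 36 tested members (vertical axis), with 95% intervals from the edgeR fit; ligands are red and receptors blue. Intervals of 4 members, Cxcl9, Ccl21a, Cxcr4 and Cxcl10, lie below 0, and none lies above it.

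The size of this shift depended on which library was left out and on how libraries were put on one scale. The members' median was -0.12 without control replicate 2, -0.51 without control replicate 1 and between -0.84 and -0.64 without any 1 deletion library. The low-count filter was applied anew in each fit, so these medians cover 41, 42 and 31 to 36 members, against 36 with all libraries. How much of each move came from the changed members was not tested. Leaving out control replicate 1 and deletion replicate 3 together gave -0.88. On the authors' TPM, log2(TPM + 0.1), all tested genes had a median change of 0.911 and the members one of -0.04, which is -0.95 relative to all genes, and groups did not overlap for 1 member, where 0.688% of all genes were lower and 4.99% higher by that rule. That member was Ackr2, lower, which reached the count filter in controls only. The median SE of a member's log2 fold change was 0.863, so many changes of 2-fold could not be resolved.

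Leukocytes carry most chemokine receptors, and their markers were also lower. Of 20 leukocyte markers 17 were tested, 16 of them negative (median on the log2 scale -0.95), against 49.6% of all tested genes. For 8 of the 17, every deletion library lay below both controls, against 10.2% of all tested genes. The summed level of the 20 markers was 31.0 to 49.6 CPM in the deletion libraries, against 76.3 and 96.0 CPM in the controls. Ptprc, the pan-leukocyte antigen CD45, had 11.2, 4.88 and 14.6 CPM in the deletion libraries, against 23.9 and 30.0 CPM in the controls. No leukocyte marker was at 0 in every library, and the B cell gene Cd79a had at most 1 count. Markers of lymphatic and blood vessels were lower as well, with 8 of 9 negative. Of the 9, 7 had no overlap on the lower side (10.2% of all tested genes) and 1, Pdpn, on the higher side (9.43%). The summed level of the 9 was 34.7 to 51.4 CPM in the deletion libraries, against 80.7 and 95.1 CPM in the controls. Of 10 fibroblast and smooth muscle markers 8 were negative, with a median of -1.29 on the log2 scale. Of the 10, 4 were lower in all deletion libraries, Col1a1, Col1a2, Col3a1 and Thy1, against 10.2% of all tested genes. The summed level of all 10 overlapped, at 3830, 1020 and 2400 CPM in the deletion libraries, against 1630 and 3000 CPM in the controls. Most of that sum was the smooth muscle gene Myh11, at 2630, 716 and 1520 CPM against 878 and 1660 CPM, so it says little about fibroblasts. In bulk tissue, fewer cells of a type and less RNA per cell cannot be told apart, and the part of cell content in the chemokine values was not tested.

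Within each library, where length-scaled levels can be ordered, Cxcl12, Cxcl16 and Cx3cl1 took the top 3 places in 4 of 5 libraries. By TPM, the order in deletion replicates 1 and 2 was Cxcl12, then Cx3cl1, then Cxcl16, at 9.86, 3.47 and 2.79 TPM in replicate 1 and 4.31, 3.97 and 3.18 TPM in replicate 2. In deletion replicate 3 it was Cxcl16 at 37.7, Cxcl12 at 35.4 and Cx3cl1 at 21.5 TPM. Control replicate 2 had Cxcl12 at 33.9, Cxcl16 at 21.2 and Cx3cl1 at 10.9 TPM. Control replicate 1 had Cxcl16 at 3.2 and Cxcl12 at 2.29 TPM, followed by Ccl21a at 2.0 and the receptor Cxcr4 at 1.74 TPM, ahead of Cx3cl1 at 0.97 TPM. Shares of the summed ligand TPM are free of the scaling between libraries. Ccl21a took 2.37%, 1.54% and 1.48% of ligand TPM in the deletion libraries, against 14.3% and 5.51% in the controls. Cx3cl1 took 12.6%, 15.3% and 15% in the deletion libraries, against 6.95% and 9.61% in the controls. Both shares were without overlap, Ccl21a on the lower side and Cx3cl1 on the higher. They were not alone in this. Shares were also higher for Ccl25 (8.05%, 8.15% and 7.4%, against 4.09% and 5.6%) and Ccl27a (8.12%, 4.19% and 4.15%, against 3.87% and 1.42%). The share of Ccl5 was lower (3.24%, 1.69% and 4.82%, against 5.09% and 7.71%). Shares of one sum depend on each other, so one can rise because others fall. Cxcl12 took 35.9%, 16.6% and 24.8% in the deletion libraries, against 16.4% and 29.9% in the controls, and these ranges overlapped.

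**Figure D2:**
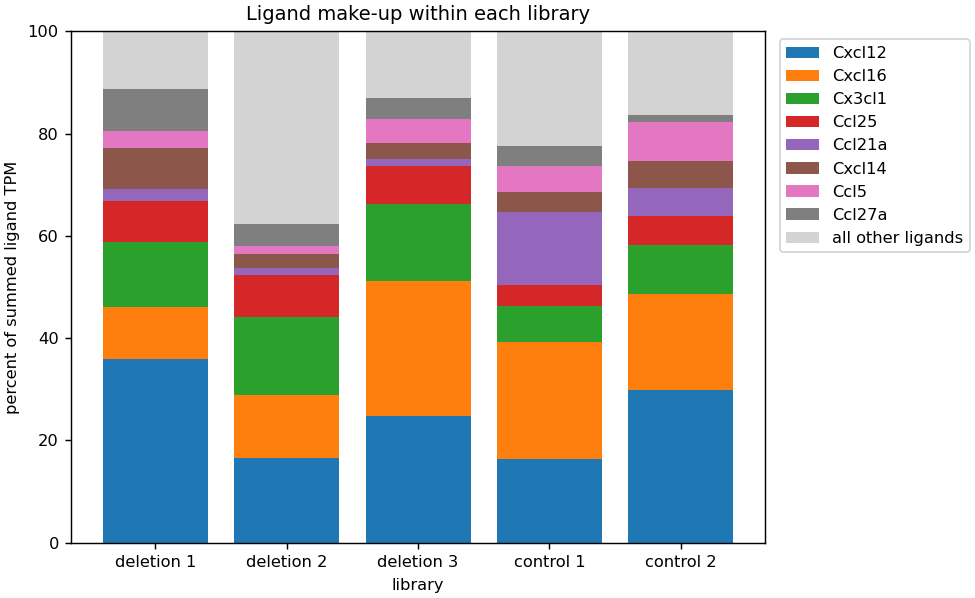
Share of the summed ligand TPM (vertical axis, percent) taken by the 8 ligands of highest mean share and by all other ligands, in each library (horizontal axis). The Ccl21a segment is 1.48% to 2.37% in the deletion libraries, against 14.3% and 5.51% in the controls.

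Ccl21a, which lymphatic vessels and lymphoid stroma make to draw in dendritic cells and naive T cells through Ccr7, had the smallest p of all members. It had 0.805, 0.438 and 0.742 CPM in deletion replicates 1, 2 and 3, against 8.29 and 4.06 CPM in control replicates 1 and 2. Every deletion library was below both controls, and the counts behind these values were 23, 14 and 40 in the deletion libraries, against 194 and 84 in the controls. In edgeR its log2 fold change was -3.21 (SE 0.566, 95% interval -4.57 to -1.86; unadjusted p = 0.000914, adjusted p = 0.985). It was negative under all 17 alternatives tried, from -3.64 to -1.81. On the authors' TPM, which carry no TMM scaling, the groups overlapped, at 0.65, 0.4 and 2.11 TPM in the deletion libraries, against 2.0 and 6.24 TPM in the controls. Set against the endothelial gene Pecam1 within the same library, there were 6.65, 3.9 and 4.26 Ccl21a counts per 100 Pecam1 counts in the deletion libraries, against 36.2 and 14.7 in the controls. Per 100 counts of the lymphatic hyaluronan receptor Lyve1 there were 79.3, 20.6 and 27.8 in the deletion libraries, against 188 and 122 in the controls. Both ratios were lower in all deletion libraries, as was Ccl21a itself. No other vessel gene was used as a denominator. Prox1, another of the vessel markers, had 41, 24 and 324 counts in the deletion libraries, against 30 and 158 in the controls. Whether Ccl21a was lower beyond vessel content was not tested. The gene lies on chromosome 4 (GRCm38, 42772860 to 42773993, minus strand), in a cluster with near-identical copies. Its estimated counts were not all whole numbers, so some of its reads fit more than one place. The copy Ccl21b was credited with 2 counts, all from deletion replicate 3. Its promoter is shown because it is the member with the smallest p; RefSeq gives it on GRCm38.p6 at chr4:42773942-42774241 (minus strand), from 250 bases before to 50 bases after the gene's start. It holds none of the 3 motifs searched, which are described with Cxcl10, and so has no capitals:
Ccl21a: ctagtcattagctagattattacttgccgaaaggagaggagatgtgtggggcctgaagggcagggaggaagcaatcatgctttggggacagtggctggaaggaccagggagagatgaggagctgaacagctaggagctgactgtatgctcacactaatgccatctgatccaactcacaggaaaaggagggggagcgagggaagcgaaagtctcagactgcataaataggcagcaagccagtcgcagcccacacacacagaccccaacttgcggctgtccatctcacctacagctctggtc

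The other genes of this route were scarce. Ccl19, the second Ccr7 ligand, had 11, 0 and 7 counts in the deletion libraries, against 1 and 4 in the controls. Ccr7 had 0, 0 and 4 counts in the deletion libraries, against 5 and 4 in the controls, too few to test. Ackr4, the atypical receptor that scavenges Ccl19, Ccl21 and Ccl25, took 29.3%, 39.7% and 39.2% of the summed receptor TPM in the deletion libraries, against 11.1% and 19.5% in the controls. In control replicate 1 it was below Cxcr4, which took 42.9% there. It had 7.67, 7.64 and 14.8 CPM in the deletion libraries, against 6.16 and 7.69 CPM in the controls. The groups overlapped, with a log2 fold change of 0.54 (SE 0.452, interval -0.54 to 1.62; edgeR adjusted p = 0.995). Ackr4 lies within the span of Acad11 on the opposite strand, with 479 exon bases in common, and its estimated counts were not all whole. Ccl25, a ligand known from thymus and gut, had 8.37, 6.29 and 11 CPM in the deletion libraries, against 7.31 and 10.9 CPM in the controls, and its receptor Ccr9 had 3.57, 1.38 and 4.84 CPM in the deletion libraries, against 2.27 and 2.03 CPM in the controls. Neither differed beyond its spread (log2 fold change -0.09, interval -1.08 to 0.89 for Ccl25, and 0.6, interval -0.92 to 2.13 for Ccr9). Part of Ccr9's exons lie under genes of either strand, so its reads are not certain to be its own. Ccl25 shares 204 exon bases with Elavl1 on the opposite strand, and its estimated counts were not all whole.

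**Figure D3:**
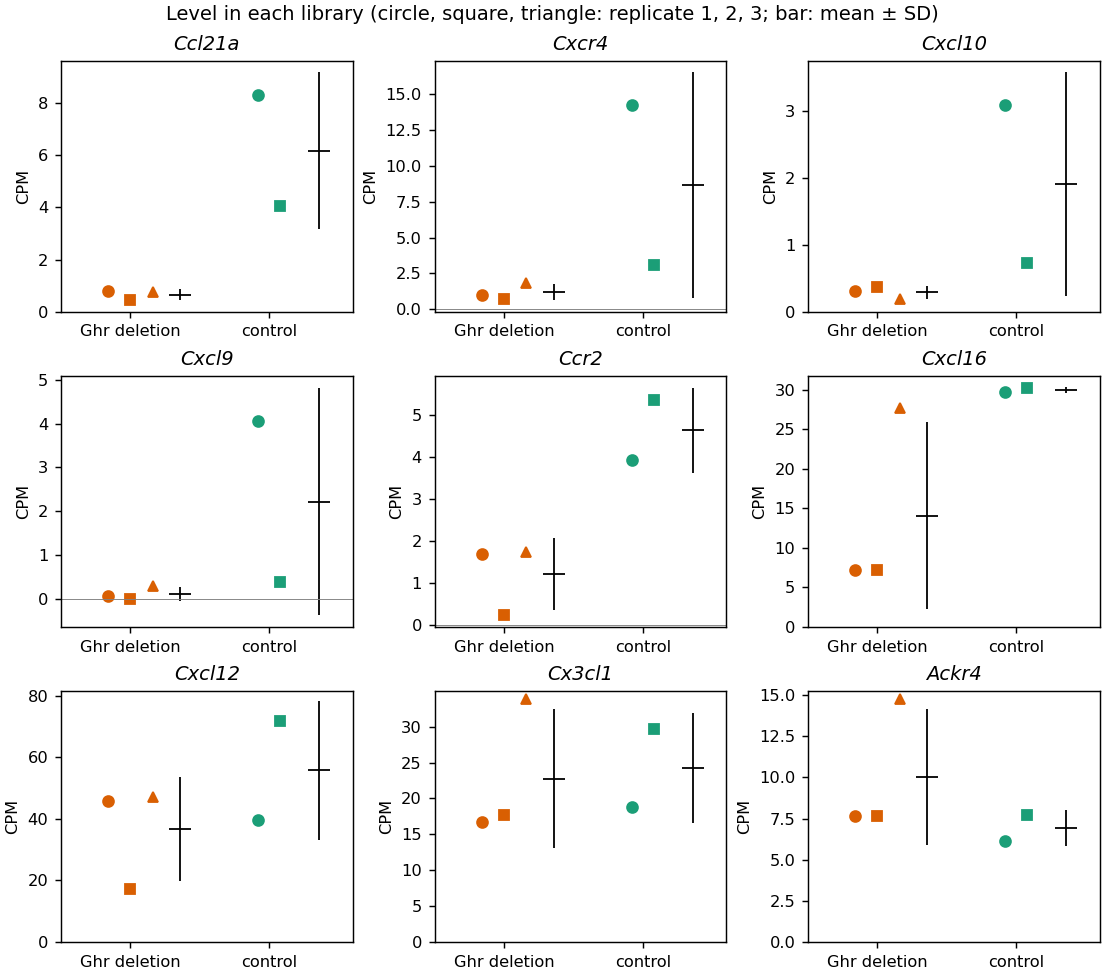
CPM (vertical axes, TMM-scaled) of 9 members in each library, with Ghr deletion left of control; symbols mark the replicate number and the black mark the mean ± SD of 3 deletion and 2 control libraries. Ccl21a, Cxcr4, Cxcl10, Cxcl9, Ccr2 and Cxcl16 have all deletion points below both control points, while Cxcl12, Cx3cl1 and Ackr4 overlap.

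In the Cxcl12 route, all deletion libraries were below both controls for Cxcr4, while the groups overlapped for Cxcl12 and Ackr3. Cxcr4, the signalling receptor for Cxcl12 on leukocytes, endothelium and many tumour cells, had 0.981, 0.751 and 1.84 CPM in the deletion libraries, against 14.2 and 3.1 CPM in the controls. Control replicate 1 was far above every other library. In edgeR Cxcr4 had a log2 fold change of -2.85 (SE 0.749, interval -4.64 to -1.06; unadjusted p = 0.00742, adjusted p = 0.985). Leaving out control replicate 1 gave -1.37, and leaving out control replicate 2 gave -3.57. In TPM the groups overlapped, at 0.41, 0.44 and 2.27 TPM in the deletion libraries, against 1.74 and 1.94 TPM in the controls. Cxcl12 had 45.7, 17.1 and 47.0 CPM in the deletion libraries, against 39.7 and 71.8 CPM in the controls, with overlap and a log2 fold change of -0.61 (SE 0.501, interval -1.8 to 0.59). Ackr3, the atypical receptor that takes up Cxcl12, had 4.76, 3.44 and 5.49 CPM in the deletion libraries, against 5.09 and 8.22 CPM in the controls, again with overlap (log2 fold change -0.54, interval -1.6 to 0.52). The difference between Cxcr4 and the other 2 genes was looked at only as count ratios within libraries. Per 100 Ackr3 counts there were 20.6, 21.8 and 33.4 Cxcr4 counts in the deletion libraries, against 279 and 37.6 in the controls, with no overlap. Per 100 Ptprc counts, by contrast, there were 8.75, 15.4 and 12.5 in the deletion libraries, against 59.3 and 10.3 in the controls, and the 2 groups overlapped through control replicate 2. The ratio to Cxcl12 overlapped too, at 2.14, 4.39 and 3.91 per 100 in the deletion libraries, against 35.7 and 4.31 in the controls. Cxcr4 lies on chromosome 1 (GRCm38, 128588199 to 128592293, minus strand). Its RefSeq promoter (chr1:128592250-128592549, GRCm38.p6, minus strand) is shown as that of the receptor with the smallest p, and it too holds none of the 3 motifs:
Cxcr4: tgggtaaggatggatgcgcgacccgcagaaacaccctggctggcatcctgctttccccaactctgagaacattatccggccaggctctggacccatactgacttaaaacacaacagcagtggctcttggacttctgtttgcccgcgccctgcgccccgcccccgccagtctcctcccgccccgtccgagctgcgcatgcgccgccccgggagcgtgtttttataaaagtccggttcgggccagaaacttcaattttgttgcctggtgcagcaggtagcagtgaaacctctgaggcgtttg

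Cxcl9 and Cxcl10, ligands of Cxcr3 that interferon induces and that attract effector T cells, were lower in all deletion libraries. Cxcl10 had 0.315, 0.376 and 0.185 CPM in the deletion libraries, against 3.08 and 0.726 CPM in the controls, from 9, 12 and 10 counts against 72 and 15. Cxcl9 had 0.07, 0 and 0.297 CPM in the deletion libraries, against 4.06 and 0.387 CPM in the controls, from 2, 0 and 16 counts against 95 and 8. In both genes control replicate 1 stood well above the rest, and control replicate 2 lay much nearer to the deletion libraries. The log2 fold changes were -2.71 for Cxcl10 (SE 0.797, interval -4.61 to -0.8; edgeR unadjusted p = 0.0125) and -4.04 for Cxcl9 (SE 1.4, interval -7.38 to -0.69; edgeR unadjusted p = 0.0249), with adjusted p = 0.991 for each. Without control replicate 1 they were -1.31 and -1.55. Cxcr3 itself, the receptor on activated T cells, had 4, 0 and 8 counts in the deletion libraries, against 17 and 11 in the controls, or 0.14, 0 and 0.148 CPM against 0.727 and 0.532 CPM. Cxcl11, annotated as a polymorphic pseudogene in GENCODE M21, had 0, 0 and 11 counts in the deletion libraries, against 2 and 2 in the controls. Cxcl10 lies within the span of Art3 on the opposite strand, with 133 exon bases in common, though its estimated counts were whole. Set against Ptprc, Cxcl10 had 2.81, 7.69 and 1.27 counts per 100 in the deletion libraries, against 12.9 and 2.42 in the controls, and the groups overlapped. The T cell co-receptor gene Cd8a, a marker of the cells these ligands attract, had 0.665, 0.219 and 0.575 CPM in the deletion libraries, against 1.58 and 4.5 CPM in the controls. Among other T cell genes examined, Cd3g was also lower in all deletion libraries, while Cd3e and Cd4 overlapped between groups.

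The promoters of Cxcl10 and Cxcl9 are shown because the genes are neighbours on chromosome 5 and were lower together. RefSeq promoters (GRCm38.p6) were at hand for 46 of the 63 members. Each was searched on both strands for an NF-kB-type motif (GGG, any 3 bases, TTCC), a STAT-type motif (TTC, any 3 bases, GAA) and an ISRE-type motif of interferon regulatory factors (GAAA, any 2 bases, GAAA). A match describes letters and not a bound site. Capitals mark matches, and matches on opposite strands may overlap. Cxcl10 (chr5:92348840-92349139, minus strand) held 1 ISRE-type match starting 213 bases before the gene's start and 2 NF-kB-type matches at 159 and 104 bases before it. Cxcl9 (chr5:92328030-92328329, minus strand) held none of these letters in the window.
Cxcl10: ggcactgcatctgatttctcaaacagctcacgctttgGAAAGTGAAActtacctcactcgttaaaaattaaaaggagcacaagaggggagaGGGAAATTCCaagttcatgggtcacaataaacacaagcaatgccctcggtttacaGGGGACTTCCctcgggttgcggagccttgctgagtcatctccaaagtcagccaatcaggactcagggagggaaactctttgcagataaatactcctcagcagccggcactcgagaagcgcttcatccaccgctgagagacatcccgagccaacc
Cxcl9: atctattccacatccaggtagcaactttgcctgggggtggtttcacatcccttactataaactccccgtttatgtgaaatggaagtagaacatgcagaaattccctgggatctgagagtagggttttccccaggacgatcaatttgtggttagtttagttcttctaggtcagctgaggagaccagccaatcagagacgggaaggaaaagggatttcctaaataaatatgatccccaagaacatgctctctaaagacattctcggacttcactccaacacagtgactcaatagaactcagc

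Over the family, 9 of 53 member promoters held the NF-kB-type motif (17%), against 5.56% of the 32851 promoters in the table. The STAT-type motif, the kind of site that STAT5 binds after growth hormone signalling, was in 4 of 53 (7.55%, against 8.3% of all promoters), and the ISRE-type motif in 3 of 53 (5.66%, against 3.44%). The 9 NF-kB-type promoters belonged to Ccl1, Ccl9, Ccl20, Ccr3, Ccr6, Cxcl1, Cxcl2, Cxcl3 and Cxcl10, of which Ccl9, Cxcl1, Cxcl2 and Cxcl10 had enough counts to test. The neutrophil attractants Cxcl1, Cxcl2 and Cxcl3 share the letters GGGAATTTCC, and the 60 bases from 100 to 41 before the start of each are set side by side (chr5:90891145-90891204, chr5:90903799-90903858 and chr5:90786001-90786060, GRCm38.p6, plus strand), with capitals at the NF-kB-type matches:
Cxcl1: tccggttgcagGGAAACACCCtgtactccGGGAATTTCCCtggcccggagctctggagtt
Cxcl2: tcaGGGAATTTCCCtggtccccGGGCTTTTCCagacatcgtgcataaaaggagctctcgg
Cxcl3: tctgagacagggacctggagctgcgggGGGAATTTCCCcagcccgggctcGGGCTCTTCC

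These neutrophil ligands were near the limit of detection in both groups. Cxcl1 had 1, 21 and 25 counts in the deletion libraries, against 1 and 8 in the controls. Cxcl2 had 0, 14 and 14 counts in the deletion libraries, against 0 and 4 in the controls. Cxcl3 had 3 counts in deletion replicate 2 and Cxcl5 at most 3 in any library. Their receptors Cxcr1 (0 counts in every library) and Cxcr2 (at most 2) were as scarce, and so were the neutrophil genes S100a8 and S100a9, which reached 0.501 and 0.782 CPM in deletion replicate 2, their highest library. Ackr1, an atypical receptor of venules and red cells that carries these ligands, had 0, 1.1 and 0.408 CPM in the deletion libraries, against 0.0427 and 0.339 CPM in the controls.

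Cxcl16 and Cx3cl1 are the 2 ligands made as membrane-anchored stalks that are also shed. Their fold changes were not tested against each other. Cxcl16, a ligand of Cxcr6 on memory T and NKT cells, had 7.18, 7.23 and 27.7 CPM in the deletion libraries, against 29.7 and 30.2 CPM in the controls. All deletion libraries were lower, although deletion replicate 3 came close to the controls. In TPM the groups overlapped, at 2.79, 3.18 and 37.7 TPM in the deletion libraries, against 3.2 and 21.2 TPM in the controls. In edgeR the log2 fold change of Cxcl16 was -1.09 (SE 0.634, interval -2.61 to 0.43; adjusted p = 0.995), and -2.07 without deletion replicate 3. Cxcl16 shares 552 exon bases with Zmynd15 on the opposite strand and its counts were not all whole. Cxcr6 overlapped between groups, at 3.78, 3.63 and 4.06 CPM in the deletion libraries, against 3.25 and 5.71 CPM in the controls (log2 fold change -0.23, interval -1.3 to 0.85). Cx3cl1, or fractalkine, had 16.7, 17.7 and 33.9 CPM in the deletion libraries, against 18.8 and 29.7 CPM in the controls. Its groups overlapped, at a log2 fold change of -0.09 (SE 0.425, interval -1.11 to 0.93). Per 100 Cx3cl1 counts there were 43.1, 40.7 and 81.7 Cxcl16 counts in the deletion libraries, against 158 and 102 in the controls, with no overlap. Per 100 Cxcr6 counts there were 190, 199 and 682 in the deletion libraries, against 913 and 530 in the controls, with overlap. Cx3cr1, the fractalkine receptor of resident macrophages and monocytes, had 4.62, 0.876 and 8.77 CPM in the deletion libraries, against 4.15 and 10.7 CPM in the controls (log2 fold change -0.64, SE 0.895, interval -2.78 to 1.5).

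Among receptors and ligands of monocytes and effector T cells, Ccr2 and Ccl5 were lower in all deletion libraries. Ccr2, which brings monocytes out of the blood, had 1.68, 0.219 and 1.74 CPM in the deletion libraries, against 3.93 and 5.37 CPM in the controls. In edgeR Ccr2 differed by -1.93 on the log2 scale (SE 0.831, interval -3.92 to 0.06; unadjusted p = 0.0554). Per 100 Ptprc counts there were 15, 4.49 and 11.9 Ccr2 counts in the deletion libraries, against 16.4 and 17.9 in the controls, without overlap. Its ligands were scarce: Ccl2 had 3, 12 and 4 counts in the deletion libraries, against 10 and 5 in the controls, and Ccl12 had 2, 6 and 6 counts, against 9 and 18. Ccl7 had 0, 7 and 2 counts in the deletion libraries, against 7 and 5 in the controls, and Ccl8 had 4, 19 and 2, against 6 and 15. Ccl5, made by T and NK cells, had 0.525, 0.25 and 1.21 CPM in the deletion libraries, against 1.5 and 2.76 CPM in the controls (log2 fold change -1.66, SE 0.773, interval -3.51 to 0.19). Per 100 Ptprc counts Ccl5 overlapped, at 4.69, 5.13 and 8.24 in the deletion libraries, against 6.25 and 9.18 in the controls. Its receptor Ccr1 had 0.21, 0.313 and 0.556 CPM in the deletion libraries, against 0.171 and 1.26 CPM in the controls, with overlap. The macrophage inflammatory ligands Ccl3 and Ccl4 had at most 18 and 11 counts in any library.

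Deletion replicate 2 stood apart for 3 ligands of low level. Ccl6 and Ccl9, rodent macrophage chemokines that act through Ccr1, had 4.57 and 2.47 CPM there. Ccl6 was 0.525 and 1.35 CPM in deletion replicates 1 and 3, against 0.556 and 1.69 CPM in the controls. Ccl9 was 0.105 and 0.723 CPM in those deletion libraries, against 0.812 and 0.774 CPM in the controls. Cxcl13, the B cell attractant of follicles, had 0.175, 2.6 and 0.538 CPM in the deletion libraries, against 0 and 0.484 CPM in the controls, and its log2 fold change of 2.19 (SE 1.62, interval -1.68 to 6.07) was 0.62 without deletion replicate 2. The receptor of Cxcl13, Cxcr5, had at most 11 counts in any library. The leukocyte gene Ptprc was lowest in this same library, at 4.88 CPM.

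**Figure D4:**
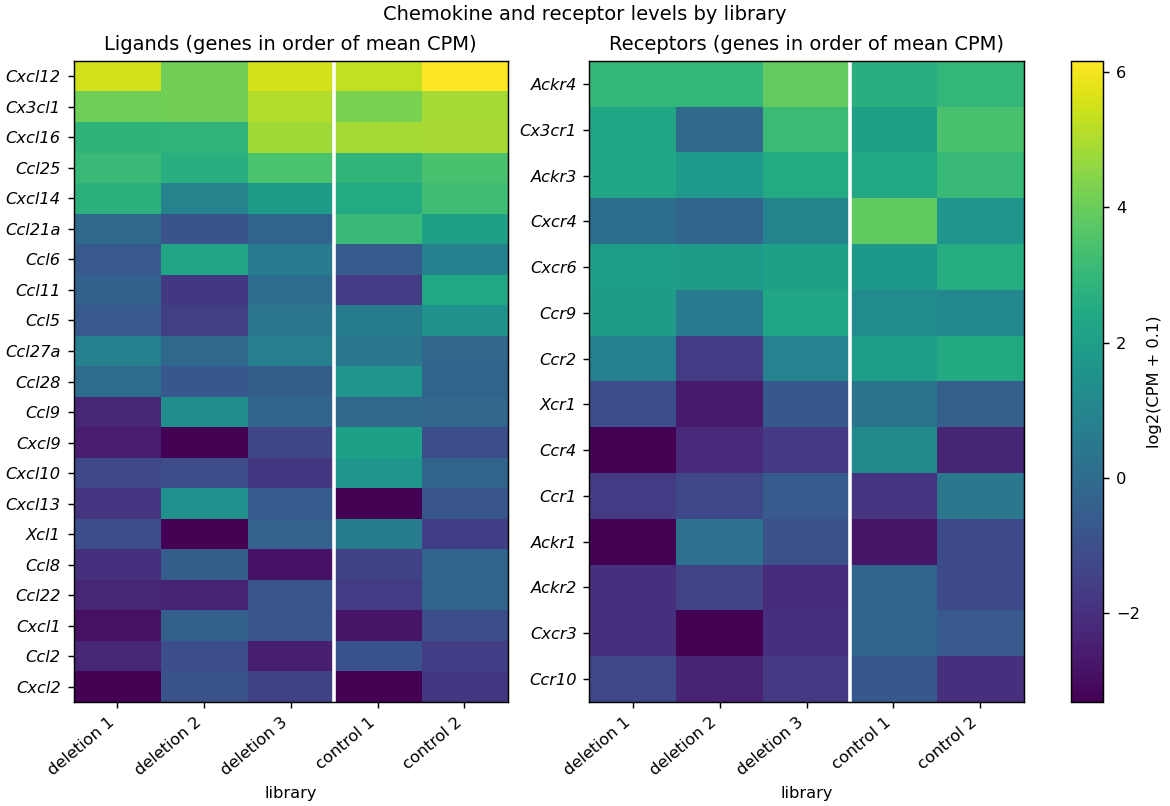
Level of the 21 tested ligands (left) and 14 of the 15 tested receptors (right), as log2(CPM + 0.1), in each library, with Ghr deletion columns left of the white line and control columns right of it; genes run from high to low mean CPM. Cxcl12, Cx3cl1 and Cxcl16 take the top ligand rows, Ccl21a and Cxcr4 are brightest in the controls, and Ccl6, Ccl9 and Cxcl13 are brightest in deletion replicate 2.

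Ligands known from epithelia and skin, and eotaxin, overlapped between groups. Cxcl14, an epithelial and stromal ligand, had 6.76, 1.78 and 3.71 CPM in the deletion libraries, against 5.51 and 9.58 CPM in the controls (log2 fold change -0.89, SE 0.623, interval -2.38 to 0.6). Ccl28, a mucosal ligand, had 0.911, 0.501 and 0.593 CPM in the deletion libraries, against 2.99 and 0.726 CPM in the controls; the log2 fold change of -1.48 was -0.12 without control replicate 1. Ccl27a, the skin ligand that shares Ccr10 with Ccl28, had 1.68, 0.814 and 1.65 CPM in the deletion libraries, against 1.24 and 0.774 CPM in the controls. Ccr10 had at most 12 counts in any library. Ccl11, or eotaxin, which attracts eosinophils through Ccr3, had 0.665, 0.188 and 0.946 CPM in the deletion libraries, against 0.214 and 4.98 CPM in the controls. Its log2 fold change of -2.09 became 1.48 without control replicate 2, and Ccr3 had 0 counts in every library.

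Of the remaining tested members, Xcr1 of cross-presenting dendritic cells and Ackr2, which degrades inflammatory CC ligands, were lower in all deletion libraries. Xcr1 had 0.385, 0.0626 and 0.519 CPM in the deletion libraries, against 1.15 and 0.629 CPM in the controls. Ackr2 had 0.14, 0.282 and 0.13 CPM in the deletion libraries, against 0.727 and 0.339 CPM in the controls, and was tested only because the controls reached the low-count filter. Groups overlapped for Xcl1, the ligand of Xcr1, and for Ccl22 and its receptor Ccr4, which reached 2.18 CPM in control replicate 1 and at most 0.204 CPM in the deletion libraries. The 27 members without enough counts to test comprised 8 with 0 counts in every library, 9 with 1 to 3 counts at most and 10 with a highest count of up to 18. The 8 without a count were Ccr3, Ccr8, Cxcr1, Ccr1l1, Ccl26, Ccl27b and the pseudogenes Ccl19-ps1 and Ccl19-ps3. A count of 3, the limit that a count of 0 allows, stood for 0.105, 0.0939 and 0.0556 CPM in the deletion libraries, against 0.128 and 0.145 CPM in the controls. The 9 included Ccl1, Ccl17, Ccl20, Ccl24, Cxcl3, Cxcl5, Cxcl15 and Cxcr2 besides Ccl21b, and Cxcl17 had at most 9 counts. Ccr6, the receptor of Ccl20 on Th17 and B cells, had 2, 2 and 18 counts in the deletion libraries and 0 in both controls.

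**Figure D5:**
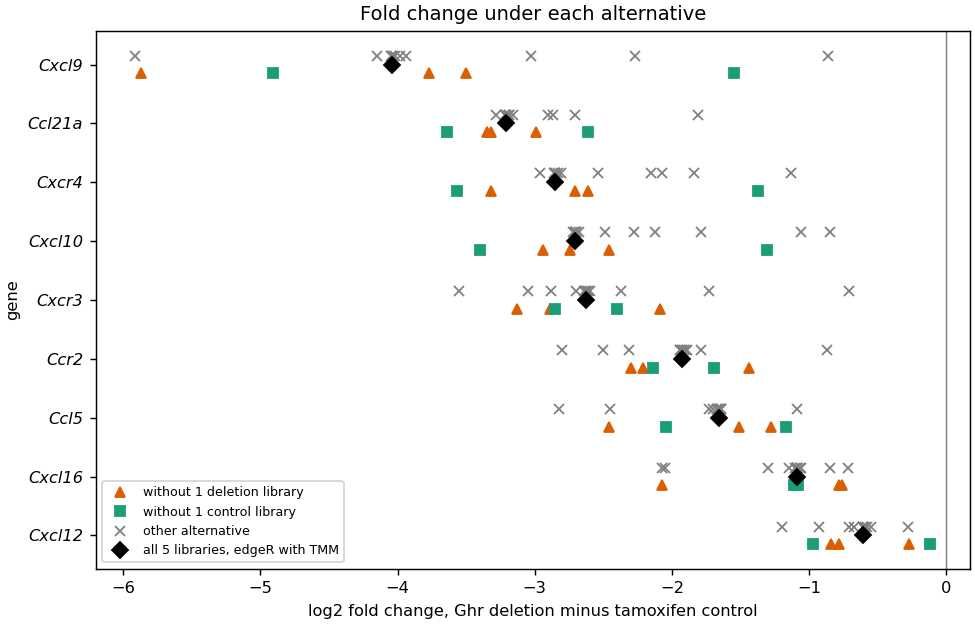
Log2 fold change (Ghr deletion minus tamoxifen control; horizontal axis) of 9 members (vertical axis) with all 5 libraries (diamonds), with 1 library left out (triangles: a deletion library; squares: a control library) and under other alternatives (crosses; TPM and unscaled totals are relative to the median of all genes). Ccl21a stays between -3.64 and -1.81, and Cxcl9 between -5.91 and -0.86.

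Of the genes that work with the family, 0 passed edgeR's adjusted test. Over all tested genes, 3.23% were lower and 1.69% higher at an unadjusted p under 0.05 in edgeR, and 49.6% were negative. The counts for each list below are to be read beside these shares. Of 25 genes of receptor signalling 24 were tested, 1 lower and 1 higher at an unadjusted p under 0.05 in edgeR and 0 after adjustment. Pik3r5, a regulatory subunit of the PI3 kinase that G protein-coupled receptors activate, had 15.8, 20.2 and 5.01 CPM in the deletion libraries, against 0.769 and 2.66 CPM in the controls (log2 fold change 2.99, SE 0.834, edgeR adjusted p = 0.991). Pik3cg, its catalytic partner, had 3.75, 2.85 and 3.65 CPM in the deletion libraries, against 25.7 and 4.69 CPM in the controls (log2 fold change -2.15, SE 0.68). These 2 subunits of one enzyme lay without overlap on opposite sides, Pik3cg narrowly so for control replicate 2. Of the 24 genes, 6 were lower without overlap and 1 was higher, against 10.2% and 9.43% of all tested genes. Grk3, a kinase that desensitizes such receptors, had 108, 105 and 51.8 CPM in the deletion libraries, against 71.7 and 50.1 CPM in the controls. Prex1, a Rac activator downstream of these receptors, had 3.01, 1.69 and 3.28 CPM in the deletion libraries, against 5.51 and 5.71 CPM in the controls. Of 23 inducers and NF-kB pathway genes 19 were tested, and 1 was lower at an unadjusted p under 0.05, Il1r1, with 19.1, 24.8 and 21.2 CPM in the deletion libraries against 126 and 23.0 CPM in the controls. Positive fold changes were found for Ifngr1, the interferon-gamma receptor chain (33.1, 104 and 82.1 CPM in the deletion libraries, against 20.0 and 57.4 CPM in the controls), and the NF-kB inhibitor Tnfaip3 (20.9, 24.9 and 36.5 CPM, against 6.54 and 31.8 CPM), with overlap for each. The inducing cytokines Ifng and Il6 had at most 3 counts in any library and Il17a had 0. Tnf, Il1a, Il1b and Ltb had enough counts to test and overlapped between groups. Tnf and Il1a were highest in deletion replicate 3, at 1.13 and 0.723 CPM. Ltb was at 0.519 CPM there and at 0.513 CPM in control replicate 1. Il1b was highest in control replicate 2, at 0.822 CPM, against 0.668 CPM in deletion replicate 3. Of 12 genes for chemokine cleavage and presentation, 12 were tested and 0 reached an unadjusted p under 0.05. Mmp2, a protease that trims Cxcl12, had 14.7, 2.41 and 4.88 CPM in the deletion libraries, against 19.2 and 25.0 CPM in the controls. The proteases Mmp9 (5.22, 1.06 and 0.816 CPM in the deletion libraries, against 0.855 and 1.69 CPM in the controls) and Mmp12 (0.665, 0.25 and 1.32 CPM, against 0.256 and 4.6 CPM) overlapped, as did the heparan sulfate carrier Sdc4 (52.5, 84.7 and 88.0 CPM, against 23.2 and 58.5 CPM). Of 14 other chemoattractant ligands and receptors 11 were tested, 9 of them negative, and S1pr1, the lymphocyte egress receptor, was the 1 lower at an unadjusted p under 0.05, with 3.15, 3.66 and 5.4 CPM in the deletion libraries against 7.35 and 9.77 CPM in the controls. In that list Cd74, a receptor of the cytokine Mif, had 46.1, 26.9 and 153 CPM in the deletion libraries, against 101 and 421 CPM in the controls. Pitpnm3, reported as a Ccl18 receptor in human cells, had 2.98, 0.689 and 2.65 CPM in the deletion libraries, against 1.41 and 1.5 CPM in the controls, and Gpr183, an oxysterol receptor of B and dendritic cells, had 2.59, 1.13 and 3.15 CPM, against 1.71 and 2.76 CPM. Of 6 growth hormone and STAT5 genes, 4 were negative (49.6% of all tested genes). At an unadjusted p under 0.05 in edgeR, 2 of the 6 lay lower (3.23% of all tested genes). Cish, a feedback inhibitor that STAT5 induces, had 7.91, 7.42 and 14.9 CPM in the deletion libraries, against 20.3 and 26.4 CPM in the controls. Stat5b had 46.3, 24.9 and 37.2 CPM in the deletion libraries, against 200 and 49.5 CPM in the controls. Groups overlapped for Jak2, the receptor's kinase (98.7, 139 and 75.5 CPM, against 101 and 66.7 CPM), and Socs2, another STAT5 target (11.7, 53.0 and 29.0 CPM, against 11 and 42.1 CPM).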

How the data were processed

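Per the file headers, the authors deposited for each library RSEM's expected counts, which are estimated counts and not normalized, with TPM and FPKM, of which FPKM was not used, and effective lengths. Tools listed in the submitters' processing notes are STAR 2.5.3a (aligner), RSEM 1.3.0 and bcl2fastq 2.20.422, with build GRCm38. Which annotation release and strand setting were used is not stated. Of 51912 gene IDs 279 had no symbol. Positions came from GENCODE M21.

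All 5 libraries' expected counts were rounded and tested with edgeR 4.0.16 under R 4.3.3 (alternatives: DESeq2 1.42.0 and limma 3.58.1). Settings were filterByExpr, TMM, robust quasi-likelihood fit, group as the only term, adjustment over 18615 genes. TMM factors were 1, 0.843 and 1.61 in the deletion libraries, and 0.491 and 1.5 in the controls. Tested on 3 simulated sets of 18615 genes, the fit called 0.0365% of genes without a change. It found 1.05% at 2-fold, 69.8% at 8-fold and 96.4% at 32-fold. The simulated spread followed the fitted trend over expression level, with no spread particular to a gene. In the real libraries the smallest edgeR adjusted p over all genes was 0.985. The simulated shares therefore do not show that changes of such size were absent here. Replicates are called biological in the series' text, with no animal or batch identity. Floors cover counting error only, as reads carry no molecular identifiers.

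Members, lists and named genes were chosen with earlier results of these data known. Values were given for members of at least 1 mean CPM, the 5 of smallest p in each direction, their receptor or ligand partners and the 5 of highest TPM, and for pathway genes with the 2 smallest p per direction in each list. Other genes named were chosen after their values were seen. One tested receptor and one pathway gene are counted but not reported here by name.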

Additional observations from a re-analysis of the deposited data

How the results depend on the processing

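Counts of called genes depended on the tool and the scale. Members called were 2 with DESeq2, against 0 in edgeR with TMM and under each other alternative. Over all genes the count was 166 with DESeq2, 46 with library totals only, 12 and 11 on TPM with pseudocounts of 0.1 and 1, 85 without control replicate 1 and deletion replicate 3 together, and 0 to 48 with 1 library left out. Members at an unadjusted p under 0.05 were 4 in edgeR with TMM (4.92% of all genes). They were 2 with library totals only (2.31%), 7 with DESeq2 (6.9%), 9 of 55 with no filter on low counts (4.44%), 0 on TPM (1.03% and 0.747%) and 3 to 7 with 1 library left out (1.72% to 9.48%). Members without overlap were 10 (19.6% of all genes). They were 17 of 55 with no filter (16.7%), 1 on TPM with either pseudocount (5.68%), 24 of 36 without those 2 libraries (66.7%, against 67.8% of all genes) and 13 to 24 with 1 library left out (30.3% to 56.2%). Without control replicate 2 the members' share, 51.2%, was below that of all genes, 56.2%. The members' median was -0.84 to -0.12 with 1 library left out, over 31 to 42 members that passed the filter. With the replicate number as a block, 8 genes and 0 members were called and 7 members had an unadjusted p under 0.05 (5.83% of all genes). Deviations of same-numbered libraries from their group means correlated at 0.131 and -0.136. With 2 controls, the deviations of one control mirror those of the other. This check therefore cannot show whether the numbers mark pairs.

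Some uncalled members changed sign. With 1 library left out, ranges were -3.04 to 1.48 for Ccl11, -0.36 to 0.22 for Ccl25, -0.24 to 1.94 for Ccl6, -0.51 to 0.27 for Cx3cl1, -1.45 to 0.2 for Cx3cr1 and -0.58 to 0.23 for Cxcr6. Cx3cl1 was 0.08 and 0.18 on TPM, and 0.11, 0.06 and 0.27 without deletion replicate 1, deletion replicate 2 and control replicate 2. Without control replicate 2, Ccl11 was 1.48, Ccl25 0.22, Cx3cr1 0.2 and Cxcr6 0.23. Without deletion replicate 2, Ccl25 was 0.09 and Ccl6 -0.24. On TPM, Ackr1 was -0.01 and -0.22, and Ccr9 -0.05 with a pseudocount of 1. Ackr4 was -0.01 without control replicate 1 and deletion replicate 3. Values on TPM and on library totals are relative to all genes, whose medians moved to 0.911, 0.539 and 0.227. The cause was not tested. Cxcl9 did not pass the filter in the fit without those 2 libraries. With 1 control left, the lone control was assumed to vary like the deletion libraries. Depth limits members under about 10 counts.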
